A study of Homo sapiens with 24 samples.

Results

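*ALPP*, *ALPG*, *CDH16*, *STAC2*, *BEST2* and *SLC6A19* are 6 genes that had almost no reads in A549 cells given vehicle and many in cells given dexamethasone (dex). They were chosen from these same counts for few reads with ethanol (EtOH) and many with dex, so the difference between dex and EtOH is described for them and not tested. They are 6 of the 33126 genes in the count table. A549 is an established human cell line from a lung adenocarcinoma, and dex is a synthetic glucocorticoid (GC). The cells received 100 nM dex in ethanol, or ethanol alone at 0.02% of the medium, for 1, 3, 5, 7, 9 or 11 h. All libraries came from this 1 line, and poly-A RNA was sequenced from 2 libraries for each treatment and time point, which the labels call biological replicates. This gives 24 libraries in 12 groups. The study's methods describe triplicates for each treatment and time point, which differs from the labels.

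GCs enter the cell and bind the glucocorticoid receptor (GR), a transcription factor that moves to the nucleus, binds DNA and raises or lowers the transcription of its targets. *ALPP* encodes placental alkaline phosphatase, an enzyme held on the outer face of the plasma membrane by a lipid anchor, and *ALPG* encodes its close paralog, the germ cell alkaline phosphatase. *CDH16* encodes kidney-specific cadherin, an adhesion protein of tubule cells. *STAC2* encodes an adaptor protein that binds voltage-gated calcium channels. *BEST2* encodes a bestrophin, a chloride channel opened by calcium. *SLC6A19* encodes B0AT1, the sodium-dependent carrier of neutral amino acids in the small intestine and the kidney proximal tubule.

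*ALPP* and *ALPG* lie side by side on chromosome 2, and much of their sequence is shared, which limits how well reads of 50 bases can be told apart. In the coordinates of GRCh38 and GENCODE release 29, *ALPP* (ENSG00000163283) is at chr2:232378534-232382889 and *ALPG* (ENSG00000163286) at chr2:232406843-232410714, both on the plus strand, with 23953 bases between them. Their transcripts were identical at 92.8% of 2442 aligned bases, with a longest identical run of 339 bases, and their coding parts at 98.1% of 1594 aligned bases. Of all stretches of 50 bases in the transcripts, 716 occurred in both, which is 24.5% of those of *ALPP* and 29.3% of those of *ALPG*. The following coding stretch of 60 bases is shown because it holds 4 of the bases that separate the genes, given in capitals, within otherwise equal sequence. It is at chr2:232379764-232379823 in *ALPP* and chr2:232407845-232407904 in *ALPG*, written 5′ to 3′ on the plus strand.
ALPP: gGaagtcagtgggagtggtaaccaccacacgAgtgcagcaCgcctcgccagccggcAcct
ALPG: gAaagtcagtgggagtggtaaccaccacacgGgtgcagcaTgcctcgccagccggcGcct

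The other genes lie on separate chromosomes. *CDH16* (ENSG00000166589) is at chr16:66908122-66918984 on the minus strand and *STAC2* (ENSG00000141750) at chr17:39210536-39225872 on the minus strand. *BEST2* (ENSG00000039987) is at chr19:12751702-12758458 on the plus strand and *SLC6A19* (ENSG00000174358) at chr5:1201595-1225117 on the plus strand.

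Promoter sequence from RefSeq (GRCh38.p14) was found for 4 of the 6 genes. The 120 bases before the GENCODE start of *ALPG*, at chr2:232406723-232406842, and of *SLC6A19*, at chr5:1201475-1201594, are shown because each holds an AT-rich element, TTTAAA or TATAAA, whose first base is at -30 relative to the RefSeq start. For *ALPG* the RefSeq start lies 1 base after the GENCODE start, and the sequence shown ends before the latter. This element is in capitals, and both sequences are on the plus strand.
ALPG: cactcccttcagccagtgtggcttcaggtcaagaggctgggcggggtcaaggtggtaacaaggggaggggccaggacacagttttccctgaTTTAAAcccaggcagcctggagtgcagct
SLC6A19: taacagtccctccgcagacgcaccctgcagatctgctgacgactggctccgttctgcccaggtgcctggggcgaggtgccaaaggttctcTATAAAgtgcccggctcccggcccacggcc

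*ALPP* held TTTAAA at the same position, and its promoter window of 250 bases was identical to that of *ALPG* at 94.3% of 228 aligned bases. On either strand, TTTAAA occurred in 11.3% and TATAAA in 10.7% of 35116 promoter windows in the reference table. The GR half-site AGAACA, whose other strand reads TGTTCT, was in none of the 4 promoters and in 12.4% of all windows. These are matches of letters within a short window and say nothing about binding of GR there or elsewhere.

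The libraries held between 6708864 and 13748598 counts, and intervals given below cover counting error only. Levels are CPM, counts divided by the TMM-scaled library size. The treatment was visible in known GR targets, since *FKBP5*, *TSC22D3* and *PER1* all passed the test for a rise with dex. Epithelial markers differed widely in level. The keratins *KRT8* and *KRT18* ranged from 1440 to 5100 and from 1750 to 5510 CPM, and both passed the test for a rise with dex. *CDH1* ranged from 28.8 to 60.2 CPM, *KRT19* from 8.17 to 21.3 CPM and *EPCAM* from 4.09 to 11.1 CPM. Of these, *CDH1* also passed for a rise, and *EPCAM* passed for a fall (log2 fold change -0.85 at 5 h). *KRT19* was lower with dex at 5 h (-0.57) and 9 h (-1.03) but did not pass at 7 h. The alveolar type II genes *SFTPC*, *SFTPB*, *SFTPA1* and *NKX2-1* had at most 7 counts in any library. Of markers of other cells, *PTPRC* of leukocytes had at most 3 counts and *COL1A1* of fibroblasts ranged from 5.03 to 22.2 CPM. *COL1A1* passed for a fall with dex (log2 fold change -1.21 at 5 h).

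With EtOH the 6 genes were close to the limit of detection at every time point. *SLC6A19* had 0 counts in all 12 EtOH libraries, which allows up to 0.0235 CPM over them (3 counts). *BEST2* had 2 counts and *ALPG* had 4 in the 12 EtOH libraries together, never more than 1 in a library. *ALPP* had 10 counts in all, with 0 in 5 libraries and 3 in the highest. *CDH16* had 23 counts, at most 6 in a library. *STAC2* was the only one of the 6 counted in every EtOH library, with 1 to 10 counts per library and 51 in all.

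**Figure D1:**
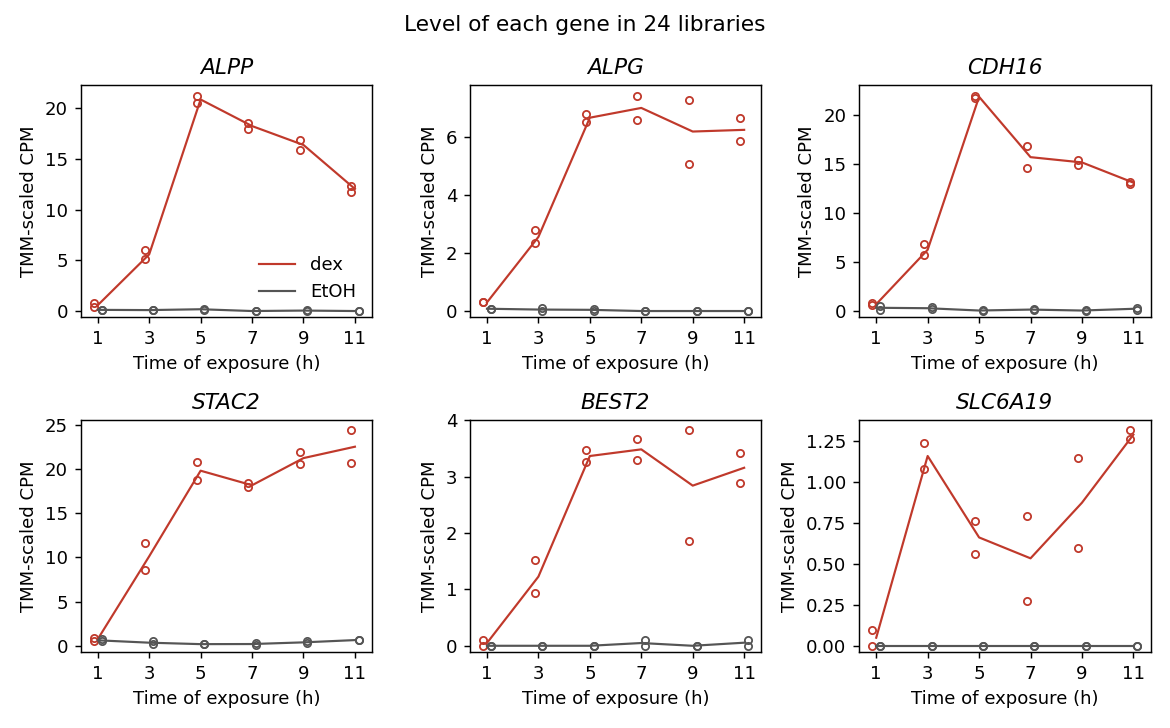
Level of the 6 genes in each of 24 libraries, in TMM-scaled CPM on a linear axis that differs between panels, against the time of exposure in hours. Open circles are libraries and lines join the means of 2 libraries with dex (red) or EtOH (grey). From 3 h on, both dex libraries lie above every EtOH library for all 6 genes.

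*ALPP* rose to one of the highest levels among the 6 genes. It had 4 and 5 counts in the dex libraries at 1 h, 50 and 67 at 3 h, 188 and 190 at 5 h, 202 and 136 at 7 h, 111 and 225 at 9 h, and 134 and 137 at 11 h. Both libraries at each time point exceeded the highest EtOH library, already at 1 h. The mean level was highest at 5 h, 20.9 ± 0.53 CPM (SD, n = 2), and 12.1 ± 0.441 CPM at 11 h. Set against all 12 EtOH libraries, the level at 5 h was 267-fold higher (143 to 560, exact 95% interval). In bulk RNA, more cells with the transcript and more of it in each cell cannot be told apart.

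*ALPG* rose beside it, at a lower level. Its dex counts were 3 and 2 at 1 h, 27 and 26 at 3 h, 60 and 61 at 5 h, 81 and 50 at 7 h, 51 and 68 at 9 h, and 76 and 65 at 11 h. The lowest of these was above the highest EtOH library. The mean reached 7.02 ± 0.598 CPM at 7 h (SD, n = 2), which was 227-fold (86.4 to 844) above the 12 EtOH libraries. From 5 to 11 h its means stayed between 6.20 and 7.02 CPM. Since reads were assigned to transcripts that share sequence, some reads of *ALPP* may have been counted for *ALPG* or the reverse. The sum of both genes does not depend on that split, though each also shares some 50-base stretches with *ALPI*. This sum was 27.6 ± 0.728 CPM at 5 h and 18.3 ± 0.119 CPM at 11 h with dex.

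*ALPP* made up most of the sum at each time point. Over the 10 dex libraries from 3 to 11 h its share ranged from 63.8% to 76.8%, with a median of 71.7%. At 5 h the libraries had 75.8% and 75.7%, and their Wilson 95% intervals ran from 70.0% to 80.7%. At 11 h they had 63.8% and 67.8%, with intervals from 57.1% to 73.9%. The mean share was 75.8% ± 0.0772 at 5 h and 65.8% ± 2.84 at 11 h (SD, n = 2), and the libraries of the 2 times did not overlap. The exact two-sided permutation test of this difference gave p = 0.333, the smallest value that 2 against 2 libraries allow.

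**Figure D2:**
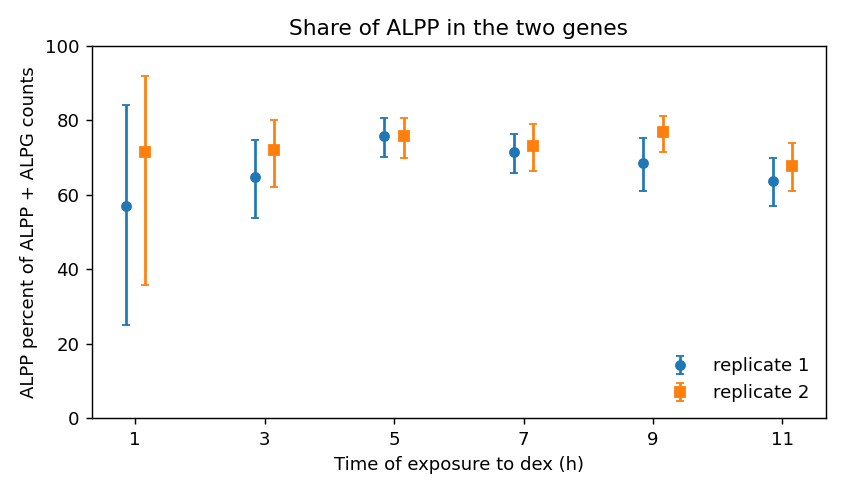
Share of *ALPP* in the counts of *ALPP* and *ALPG* together (percent, axis from 0 to 100) for each dex library against the time of exposure in hours, with Wilson 95% intervals for counting error. The shares lie between 63.8% and 76.8% from 3 h on, and the intervals at 1 h are wide because each library held 7 counts.

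An annotated antisense gene overlaps *ALPP* on the other strand. *AC068134.1*, at chr2:232379635-232381674, has 631 of its 680 exon bases over exons of *ALPP*. It had 0 counts with EtOH and 42 with dex, namely 0 and 0 at 1 h, 3 and 2 at 3 h, 8 and 7 at 5 h, 2 and 2 at 7 h, 1 and 6 at 9 h, and 1 and 10 at 11 h. It was counted in each dex library from 3 h on and in neither at 1 h, where *ALPP* had 4 and 5 counts. The libraries were stranded, but whether strand was used in counting is not stated, so reads of *ALPP* and of the antisense RNA cannot be told apart here.

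*CDH16* reached the same height as *ALPP*. It had 8 and 4 dex counts at 1 h, 66 and 63 at 3 h, 199 and 196 at 5 h, 183 and 110 at 7 h, 107 and 199 at 9 h, and 148 and 146 at 11 h. In CPM both libraries were above every EtOH library from 1 h on, though not in raw counts at 1 h. The margin at 1 h was small, with 0.605 CPM in the lower dex library and 0.521 CPM in the highest EtOH library. The mean was highest at 5 h, with 21.8 ± 0.157 CPM (SD, n = 2), 121-fold (79.5 to 193) above the 12 EtOH libraries. At 11 h it was 13.1 ± 0.148 CPM. The counts were spread over 9 transcripts, each with 3.01% to 20.4% of the dex counts, and between 75.8% and 98.3% of the 50-base stretches of a transcript recurred in another *CDH16* transcript. The level is therefore given for the gene and no single isoform is named.

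*STAC2* showed the largest counts of the 6 genes. Its dex libraries had 6 and 6 counts at 1 h, 83 and 130 at 3 h, 191 and 168 at 5 h, 200 and 136 at 7 h, 153 and 274 at 9 h, and 236 and 270 at 11 h. At 1 h the dex libraries overlapped the EtOH libraries, and from 3 h both stood above all of them. The mean at 11 h was the highest, 22.5 ± 2.61 CPM (SD, n = 2), and 56.3-fold (42.2 to 76.7) above the 12 EtOH libraries. One of its 2 transcripts, ENST00000333461.5, held 63.5% of the dex counts, and between 58.1% and 71.3% in each dex library from 3 h on. The split between the transcripts is uncertain, since 65.1% of the 50-base stretches of this one and 97.9% of those of the other recurred in its partner. No more than 3.09% of the 50-base stretches of a *STAC2* transcript occurred in another gene.

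*BEST2* had fewer counts, and its replicates differed more. The dex libraries had 1 and 0 counts at 1 h, 9 and 17 at 3 h, 30 and 31 at 5 h, 40 and 25 at 7 h, 13 and 51 at 9 h, and 33 and 38 at 11 h. No EtOH library had more than 1, so the groups were separate from 3 h on. The mean was 3.49 ± 0.266 CPM at 7 h (SD, n = 2), which was 225-fold (59.8 to 1900) above the 12 EtOH libraries. This wide interval follows from the 2 EtOH counts. At 9 h the libraries stood apart at 1.86 and 3.82 CPM, and the mean was 2.84 ± 1.39 CPM. Of its 4 transcripts, 3 held 31.2% to 32.6% of the dex counts each.

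*SLC6A19* had the lowest level of the 6 genes. The dex libraries had 1 and 0 counts at 1 h, 12 and 12 at 3 h, 7 and 5 at 5 h, 3 and 6 at 7 h, 8 and 8 at 9 h, and 15 and 14 at 11 h. Every dex library from 3 h on had at least 3 counts, while every EtOH library had 0. The means were 1.16 ± 0.114 CPM at 3 h, 0.534 ± 0.365 CPM at 7 h and 1.29 ± 0.0359 CPM at 11 h (SD, n = 2). The level at 11 h was 54.9-fold above a floor of 3 counts over all 12 EtOH libraries. Against the same floor over the EtOH libraries at 11 h alone it was 7.35-fold. Neither value allows for the counting error of the 29 dex counts. Its longer transcript had 64.8% and its shorter one 35.2% of the dex counts.

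Per kilobase of the longest transcript in the table, the highest dex means fell into an upper and a lower set. *ALPP* had 7.03 ± 0.178, *STAC2* 6.70 ± 0.776 and *CDH16* 6.16 ± 0.0442 CPM per kb (SD, n = 2). The order of *ALPP* and *STAC2*, and of *STAC2* and *CDH16*, was within the spread of the *STAC2* libraries. It also depends on the length chosen. The longest *CDH16* transcript, of 3539 bases, held 20.4% of its dex counts, and its others were at most 2954 bases. The shorter *STAC2* transcript, of 2251 bases, held 36.5%. Shorter lengths would give higher values for these 2 genes, so the order within the upper set is uncertain. *ALPG* had 2.82 ± 0.24, *BEST2* 1.60 ± 0.122 and *SLC6A19* 0.249 ± 0.00693 CPM per kb, each below the one before it by more than the spread.

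**Figure D3:**
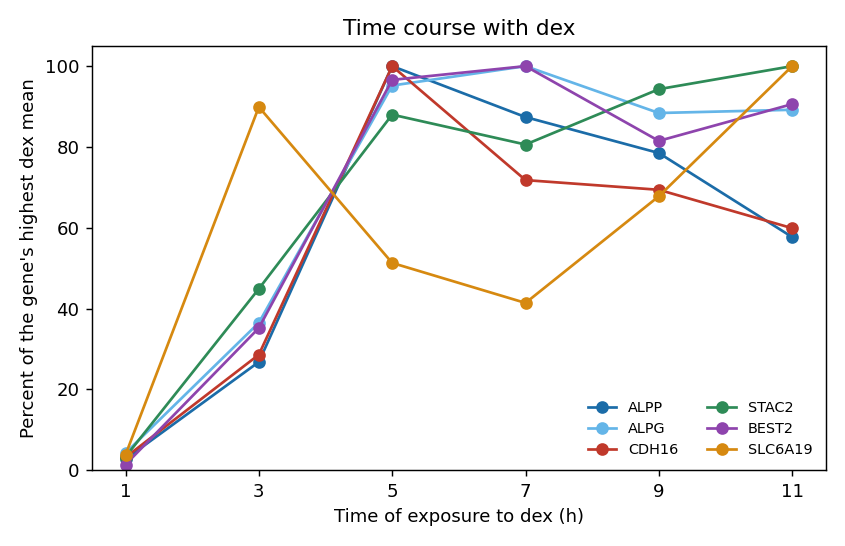
Mean dex level of each gene (2 libraries) as a percent of its highest dex mean, against the time of exposure in hours, on a linear axis from 0. At 1 h all 6 genes are below 5%, at 3 h *SLC6A19* is at 89.9% and the others are at 26.8% to 44.9%, and at 11 h *ALPP* and *CDH16* are at 57.7% and 59.9%.

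At 1 h the dex means were between 1.41% and 4.26% of the highest dex mean of the gene. In CPM both dex libraries were above every EtOH library, and remained so, from 1 h for *ALPP*, *ALPG* and *CDH16*. For *STAC2*, *BEST2* and *SLC6A19* this held from 3 h. The counts at 1 h were low, with 9 dex counts against 3 EtOH counts for *ALPP*, a ratio of 4.55 (1.14 to 26.1). For *ALPG* they were 5 against 2, a ratio of 3.79 (0.621 to 39.8). For *CDH16* they were 12 against 8, a ratio of 2.28 (0.855 to 6.42). These values are a description, and no difference in onset between genes was tested. At 3 h *ALPP* stood at 26.8%, *CDH16* at 28.6%, *BEST2* at 35.2%, *ALPG* at 36.5% and *STAC2* at 44.9% of the highest mean. *SLC6A19* stood at 89.9% at 3 h and at 41.4% at 7 h, from 24 and 9 counts.

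Levels at 11 and 5 h of dex were compared within the dex libraries. The genes were chosen by their dex levels against EtOH and not by the direction between these times, but the same dex counts entered that choice, so the test is not fully independent of it. The groups of 2 libraries were tested with edgeR in 1 fit over all 24 libraries. An adjusted p of at most 0.1 was called, and 7.43% of all 15337 genes tested differed, 2.63% being lower at 11 h. Of the 6 genes, *ALPP* and *CDH16* were lower at 11 h, and the other 4 did not pass. *ALPP* was at 57.7% of its level at 5 h, or -0.79 ± 0.17 on the log2 scale (SE; adjusted p = 0.00368, edgeR quasi-likelihood test, Benjamini-Hochberg). *CDH16* was at 59.9%, or -0.74 ± 0.18 on the log2 scale (SE; adjusted p = 0.0138, edgeR quasi-likelihood test, Benjamini-Hochberg). The call for *CDH16* was lost when the 4 libraries of the contrast were fitted alone (adjusted p = 0.106 from edgeR) and for its transcript with most counts (adjusted p = 0.506 from edgeR).

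For the other genes the interval of 2 standard errors on either side included 0. *ALPG* had a log2 fold change of -0.09 between 11 and 5 h (-0.57 to 0.38), *STAC2* of 0.18 (-0.14 to 0.51) and *BEST2* of -0.09 (-0.78 to 0.59). For *SLC6A19* it was 0.95 (-0.16 to 2.06), from 29 counts at 11 h and 12 at 5 h. The adjusted p of the 4 genes ran from 0.437 to 0.941 in edgeR. A fall of the size seen in *CDH16* lay inside the interval of *BEST2* and outside those of *ALPG*, *STAC2* and *SLC6A19*. Whether *ALPP* and *ALPG* differed in this change was tested only through their share above.

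**Figure D4:**
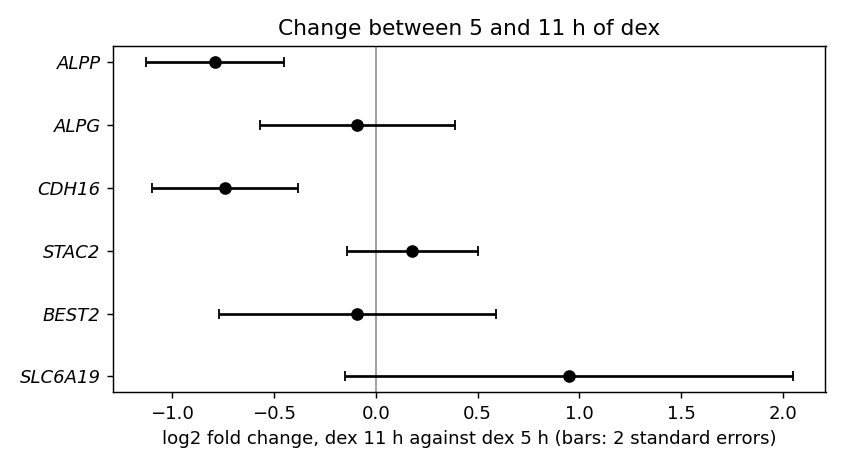
Log2 fold change of each gene at 11 h against 5 h of dex (points) with 2 standard errors on either side (bars), from the fit over 24 libraries. *ALPP* at -0.79 and *CDH16* at -0.74 lie to the left of 0, and the bars of the other 4 genes cross 0.

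Over all 24 libraries, the genes whose log2 CPM (prior count 2) was most like that of the 6 were found by Pearson correlation. It is a description, since the dex libraries from 3 h on are high and the EtOH libraries low for every gene compared. *FKBP5*, a co-chaperone of GR, came first for *ALPP* (0.992), *ALPG* (0.994) and *STAC2* (0.985). *GPR1* came first for *CDH16* (0.984), *ABHD2* for *BEST2* (0.986) and *RREB1* for *SLC6A19* (0.974). The second were *AGFG2* for *ALPP* and *ALPG* (0.990 each), *FKBP5* for *CDH16* (0.982), *TMEM43* for *STAC2* (0.981), *ETNK2* for *BEST2* (0.985) and *FGD4* for *SLC6A19* (0.974). Between any 2 of the 6 genes the correlation was 0.907 to 0.994, and the 5 pairs with *SLC6A19* were the lowest, at 0.907 to 0.934.

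Genes near the 6 were examined next, with the test that defines a dex-responsive gene here. A gene was called when it passed edgeR's test between dex and EtOH (adjusted p of at most 0.1 by Benjamini-Hochberg) in the same direction at 2 or more consecutive time points. Over all 15337 genes tested 20.1% were called, and 10.5% were called higher with dex. All 6 genes were called higher, which their choice had fixed. Within 250 kb of them lay 103 other genes in the table, of which 60 could be tested, and 12 were called, 7 higher and 5 lower. The median log2 fold change at 5 h of the 60 was 0.11, against 0.00 over all features. Only 5 neighbours were called without dex replicate 2, 6 without dex replicate 1 and 4 with DESeq2.

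Around *CDH16*, 4 of 17 tested neighbours were called higher and 1 lower. *RRAD*, which encodes a small GTPase that limits voltage-gated calcium channels, lies 2694 bases from *CDH16*. It had 6.96 ± 0.125 CPM with dex and 0.381 ± 0.186 with EtOH at 5 h (SD, n = 2), 4.19 ± 0.40 on the log2 scale (SE; adjusted p = 7.07e-12, edgeR). *CES4A*, a carboxylesterase gene 69604 bases away, was higher by 3.30 ± 0.57 on the log2 scale (SE; adjusted p = 1.31e-05, edgeR) but was not called with DESeq2. Around *BEST2*, 2 of 27 were called higher and 2 lower. *JUNB*, which encodes a subunit of the AP-1 transcription factor, lies 33037 bases away and had 72.2 ± 14.6 CPM with dex and 30.9 ± 7.49 with EtOH at 5 h (log2 fold change 1.23, adjusted p = 2.08e-05 from edgeR). *RNASEH2A* and *NFIX* each had a log2 fold change of -0.90 and were not called with DESeq2.

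Around *SLC6A19*, 1 of 5 tested neighbours was called higher and 2 lower. *LPCAT1* was higher at 0.66 and *SLC12A7* lower at -0.54 (log2 fold change at 5 h), and both were also called with DESeq2. *TERT*, which encodes the telomerase catalytic subunit, was lower at -1.51 at 5 h and was not called with DESeq2. *SLC6A18*, a related transporter gene 237 bases from *SLC6A19*, had 0 counts in all 24 libraries. None of 6 tested neighbours of *STAC2*, of 4 of *ALPG* and of 1 of *ALPP* was called. *ALPI*, the intestinal alkaline phosphatase gene 45408 bases from *ALPG*, had 7 counts with dex and 1 with EtOH over all libraries, too few to test. It shares 50-base stretches with *ALPP* and *ALPG*, so reads of those genes may be among its counts.

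**Figure D5:**
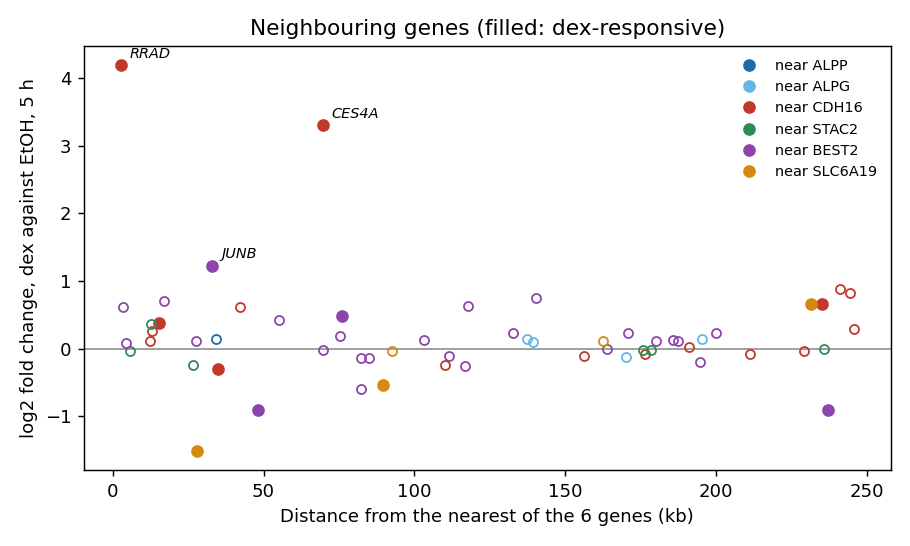
Log2 fold change at 5 h (dex against EtOH) of 60 tested genes within 250 kb of the 6 genes, against their distance in kb. Filled points were dex-responsive and colours mark the nearest of the 6 genes. Most points lie close to 0, with *RRAD* (4.19), *CES4A* (3.30) and *JUNB* (1.23) above them.

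Genes related to the 6 by family or as partners were examined in the same way. Of 64 genes in the table from a list of families and partners, 31 could be tested, 4 were called higher and 4 lower, and the median log2 fold change at 5 h was 0.01. The 8 calls among 31 stand beside 20.1% over all genes tested. The calls numbered 3 without dex replicate 2, 4 without dex replicate 1 or EtOH replicate 1, and 2 with DESeq2. Alkaline phosphatases other than the pair could not be tested, since *ALPL*, the tissue-nonspecific enzyme, had 16 counts with dex and 16 with EtOH. Among 12 tested cadherins, *CDH1*, which encodes E-cadherin, was called higher with a log2 fold change of 0.65 at 5 h. *CDH10*, *CDH11*, *CDH19* and *CDH24* were called lower, none of them with DESeq2. Their log2 fold changes at 5 h were -0.99, -0.82, -0.77 and -1.28, of which that of *CDH11* did not pass at 5 h, and at 7 h *CDH11* had -1.30. *CDH17*, the liver-intestine cadherin and a close relative of *CDH16*, had 9.45 ± 0.872 CPM with dex and 9.74 ± 1.87 with EtOH at 5 h (SD, n = 2) and was not called.

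None of 7 tested STAC proteins and L-type calcium channel genes was called. *STAC* itself had a log2 fold change of -1.88 at 5 h, where it passed (adjusted p = 0.00341 from edgeR), but at no neighbouring time point, and *STAC3* had 26 counts with dex and 38 with EtOH. Of 4 tested bestrophins and other calcium-activated chloride channels, *ANO1* was called higher with a log2 fold change of 1.72 at 5 h, though not with DESeq2. *BEST1* was also called higher, but 99.6% of its counts were on a single transcript, and the gene shares 1267 exon bases with *FTH1* on the other strand, so its value of 0.45 at 5 h is uncertain. *BEST3* had a log2 fold change of 0.18 and was not called, and *BEST4* had 9 counts with dex and 7 with EtOH. Of 8 tested SLC6 transporters and partners of B0AT1, *SLC6A15* was called higher at 0.98. *SLC6A20* at 0.38 and *CLTRN*, the kidney partner collectrin, at -0.18 were not called.

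Markers of tissues where some of the 6 genes are known to be expressed were also counted. Of 78 markers of placenta, kidney tubule, small intestine and colon in the table, 13 had enough counts to be tested. Of these, 4 were called higher and 2 lower, with a median log2 fold change of 0.50 at 5 h, against 0.00 over all features. Over all genes tested, 10.5% were called higher and 20.1% in either direction. *ANPEP*, an aminopeptidase of the intestinal brush border, had 56.3 ± 2.11 CPM with dex and 3.86 ± 0.0507 with EtOH (log2 fold change 3.86, adjusted p = 9.46e-24 from edgeR). *MGAM*, a brush border glucosidase, was called higher at 1.21 and *VIL1*, which encodes the actin-bundling villin, lower at -0.83. In the placenta list *PAPPA* was called higher at 0.50 and *TFAP2C* lower at -0.62, the latter not with DESeq2. In the kidney list *CALB1* was called higher, with a log2 fold change of 2.22 at 11 h. Its value at 5 h, 0.62, did not pass.

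Other genes near silence with EtOH were counted by fixed limits. Of 15754 genes with at most 5 counts in each EtOH library, 11 had at least 20 counts in both dex libraries of a time point, all of them protein coding, and 5 further features without a gene met both limits. The number of genes depended on the limits, being 40 with up to 10 EtOH counts and 33 with at least 10 dex counts, and single transcripts in place of genes gave 21. *ALPP*, *ALPG* and *BEST2* were among the 11. *CDH16*, with up to 6 EtOH counts, lay just outside the limit with EtOH, and *STAC2*, with up to 10, lay further outside it. *SLC6A19* lay outside the limit with dex, its best time point having 14 counts in the lower library. The other 8 genes were *HSD11B1* (4.91), *LEFTY1* (3.27), *PDZD2* (2.60), *GMPR* (2.54), *CLDN7* (2.48), *CSF3* (2.43), *C11orf91* (2.43) and *CAPN8* (2.09), with the highest dex mean in CPM given for each. *HSD11B1*, which encodes the enzyme that regenerates active GC from its inactive form, had 48 and 41 counts at 5 h and 2 counts over all EtOH libraries.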

How the data were processed

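Stranded poly-A libraries were sequenced in reads of 50 bases from 1 end. The authors aligned them with Bowtie to transcripts of GENCODE release 19, counted each transcript with SAMtools and deposited raw counts. How reads matching several transcripts were placed is not stated. The table of 119207 transcripts was joined to genes through GENCODE release 29 by identifiers without version, 110261 matched (94.1% of counts), and counts were summed per gene. The row for unplaced reads held 0 counts. Treatment, time and replicate came from the labels, whose duration was used. Their treatment text gives 1 h for every library.

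Counts were tested with edgeR 4.0.16 in R 4.3.3 (TMM, filterByExpr over 12 groups, robust quasi-likelihood F-test, Benjamini-Hochberg), each time point by itself, with the 11 h against 5 h contrast in 1 fit of 24 libraries. The filter kept 19897 features, 15337 of them genes. Fold intervals are exact conditional intervals, and a group at 0 was set to 3 counts over the group. In simulated counts with 200 changed features, 50.5% of 2-fold and 92.5% of 4-fold changes between dex and EtOH at 5 h were recovered (9.88% of 162 calls were false), and 61.4% and 89.5% between dex 11 h and dex 5 h (5.77% of 156).

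The members and lists were chosen with earlier results of these data known. Named genes are the 6, called list genes (at most 6 per list, by size at 5 h), their close relatives, other near-silent genes and the 2 genes most correlated with each. *LPCAT1* and *SLC12A7* were named beside these. Alternatives were DESeq2 1.42.0, its size factors, no filter, 1 fit of 24 libraries, a replicate block, a threshold of 0.05, single transcripts, other limits and distances, and leaving out replicates. Alignments used Biopython 1.88, exact tests scipy 1.17.1 and figures matplotlib 3.10.9 (Python 3.11.15). A few listed genes were not analysed or are not reported here.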

Additional observations from a re-analysis of the deposited data

Results flagged for a closer look

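Some genes near the 6 genes or in the related lists had both dex libraries above both EtOH libraries at one time point and below both at another. The difference between the time points was not tested, and how often all genes show this pattern was not counted. Of the genes named here, only *RNASEH2A* passed at both of its time points (adjusted p = 0.0701 at 3 h and 0.000601 at 5 h, edgeR). *NFIX* did not pass at 3 h (adjusted p = 0.284 from edgeR). *CDH10*, *CDH19*, *PAPPA* and *ANPEP* did not pass at 1 h (adjusted p of 0.808 to 0.947 from edgeR). The log2 fold change of *RNASEH2A* was 0.49 at 3 h and -0.90 at 5 h, and that of *NFIX* was 0.36 at 3 h and -0.90 at 5 h. *CDH10* had 0.40 at 1 h and -1.46 at 7 h, and *CDH19* had 0.39 at 1 h and -1.88 at 7 h. *PAPPA* had 0.50 at 5 h and -0.21 at 1 h, and *ANPEP* had 3.86 at 5 h and -0.23 at 1 h. None of the 6 genes themselves showed such a pattern, which their choice for few EtOH counts and many dex counts had all but fixed.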

How the results depend on the processing

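DESeq2 called 1901 dex-responsive genes in place of 3089, 4 neighbouring genes in place of 12 and 2 family and partner genes in place of 8. A threshold of 0.05 left 7 neighbouring genes and 4 family and partner genes. Leaving out 1 replicate of a treatment gave 1938 to 3065 dex-responsive genes, 5 to 11 neighbouring genes, 3 to 6 family and partner genes and 5 to 6 tissue markers. Without dex replicate 1 there were 1938 dex-responsive, 6 neighbouring and 4 family genes, without dex replicate 2 there were 5 neighbouring and 3 family genes, and without EtOH replicate 1 there were 4 family genes. Near-silent genes numbered 40 with up to 10 EtOH counts, 33 with at least 10 dex counts and 21 as single transcripts, in place of 11. The fold at the highest dex mean also depended on the EtOH libraries used. Against those of the same time alone it was 114 (44.0 to 419) for *ALPP*, 475 (84.7 to 18800) for *CDH16* and 35.0 (19.4 to 70.5) for *STAC2*. For *BEST2* it was 71.7 (12.4 to 2880), and for *ALPG* 48.2 against a floor of 3 counts.

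Between 11 and 5 h, *ALPP* passed under all 10 alternatives (adjusted p of 0.00327 to 0.0849). *CDH16* stayed at -0.74 with the 4 libraries alone (adjusted p = 0.106 from edgeR) and at -0.50 for its transcript with most counts (adjusted p = 0.506 from edgeR). Without 1 library of the contrast, ranges were -0.83 to -0.75 for *ALPP*, -0.19 to 0.00 for *ALPG*, -0.75 to -0.73 for *CDH16*, 0.06 to 0.30 for *STAC2*, -0.22 to 0.03 for *BEST2* and 0.73 to 1.19 for *SLC6A19*. *BEST2* turned to 0.03 without dex replicate 1 at 11 h. The cause of these shifts was not tested. With the replicate block, 3268 genes were dex-responsive and no call of the 6 genes changed. The differences between replicates with dex were correlated with those between the same-numbered replicates with EtOH, which gave -0.0588 to 0.135 by time point. These low values gave no sign that the numbers pair the libraries. They cannot exclude pairing, since each difference rests on single libraries and is noisy. The study's methods call the EtOH control paired. *SLC6A19* had 9 to 29 and *BEST2* 26 to 71 dex counts per time point from 3 h on, so their values have wide intervals. DESeq2 gave no adjusted p for *ALPG*, *BEST2* and *SLC6A19* at 11 against 5 h.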

Other observations

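Over all 6 genes, the EtOH counts were higher at 1 h than later. The 2 EtOH libraries at 1 h held 14 and 15 counts of the 6 genes, and the 10 later ones held 3 to 10. Together this was 29 counts at 1 h and 61 from 3 to 11 h, a ratio of 1.91 per count sequenced (1.18 to 3.02, counting error only). *STAC2* (16 counts at 1 h, 35 later) and *CDH16* (8 and 15) held most of them. Taken alone, *STAC2* had a ratio of 1.84 (0.95 to 3.41) and *CDH16* of 2.14 (0.787 to 5.39), so neither was clearly higher at 1 h. The mean EtOH level of *STAC2* was 0.620 CPM at 1 h and 0.643 CPM at 11 h, so it was not above every later time. In the dex libraries at 1 h the 6 genes had 40 counts against 29 with EtOH, a ratio of 2.09. By gene the ratio was 4.55 for *ALPP*, 3.79 for *ALPG*, 2.28 for *CDH16* and 1.14 for *STAC2*. *BEST2* and *SLC6A19* had 1 dex count each and 0 with EtOH. These ratios are a description, since the genes were chosen for few counts with EtOH and many with dex. The higher pooled EtOH level at 1 h was noticed after the counts had been seen and was not tested across libraries.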
